A study of Mus musculus with 12 samples.

Results

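The genes described here are the voltage-gated sodium and calcium channels and the potassium channels of the mouse genome, with their auxiliary subunits, as they were expressed in AtT-20 cells that carried different forms of the transcription factors Pax7 and Pax3. They were chosen by symbol alone (Scn, Cacna, Cacna2d, Cacnb and Kcn followed by the number and letter of the subunit), without any measured value. The expression table held 72 such genes among 16385. Of these, 45 reached 1 FPKM (fragments per length of exon and per sequenced total) in at least 2 of 12 libraries and were tested among 12578 genes. The other 27 had no value above 1.55 FPKM in any library, and 6 of them were listed at 0 in every library outside the NoTag pair.

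Ion channels set the electrical activity of endocrine cells. Sodium and calcium channels open on depolarization and carry inward current, and calcium entry drives hormone release, whereas potassium channels carry outward current and hold the membrane at rest or end the action potential. Corticotropes and melanotropes of the pituitary both fire action potentials, and channels of each of these classes are known in them.

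AtT-20 is a line of mouse pituitary corticotrope tumour cells, and Pax7 is the factor that directs the melanotrope rather than the corticotrope fate. The study's methods describe pools of cells infected with a retrovirus and selected with Geneticin, the Pax7 constructs being under the CMV promoter. Each pool joined many colonies. The methods do not name the Pax3 or the NoTag cells separately. The NoTag cells are labelled only as Pax7, and their isoform is not given in the sources used here. The Pax7-465 cells expressed a Pax7 that ends at residue 465, and the Pax3 cells the related factor Pax3. The study's supplement names its deletions as mutants of the Q+GL- form, so Pax7-465 would also differ from Q-GL- by the glutamine and from Q+GL+ by the lack of GL. The Q-GL-, Q+GL+ and Q-GL+ cells each expressed a splice isoform of Pax7 that lacks (-) or contains (+) a glutamine (Q) and a glycine-leucine pair (GL) within the paired domain, which binds DNA. The methods give the Pax7 constructs a Flag tag at both ends, which the NoTag cells lack by their label. They name no tag for Pax3. Each group had 2 libraries of total RNA after ribosomal depletion, described as biological replicates. Whether the 2 came from separate pools is not stated, so construct and pool cannot be told apart in any comparison.

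The summed FPKM was between 413794 and 483161 in the 10 libraries outside NoTag, and 627305 and 666609 in the NoTag libraries, which stood apart. Replicates of a group correlated at 0.986 to 0.992 over all genes tested, and a NoTag library at no more than 0.954 with a library of another group. In the Q+GL+, Q-GL+ and Pax7-465 groups at least 1 library correlated more highly with a library of another group (0.9879, 0.9879 and 0.9873) than with its own replicate (0.9862, 0.9856 and 0.9861). The depth is unknown, since no read counts were given. Of 5 corticotrope markers, all 5 were in the table, and 4 of them reached 1 FPKM in at least 2 libraries. Pomc was at 5112 to 10680 FPKM. Pax7 was at 0.16 FPKM in both Pax3 libraries and between 93.9 and 159 FPKM in all others. Markers of other cells were low: none of the 3 glial markers was in the table, Lhb was listed at 0, and Des, Col1a1, Cd68 and Pecam1 did not pass 1.25 FPKM.

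Outside the NoTag comparison, 8 channel genes passed the test. The start regions of 4 of them (250 bases before to 50 bases after the start of transcription, RefSeq on GRCm38.p6) are shown. Only these 4 of the 8 had a start region among the RefSeq promoters used here. Their genes passed the test between cells of different Pax7 isoforms, and the regions differ in base composition. Capitals mark CG dinucleotides. Kcnh6 (chr11:106007898-106008197, plus strand) had 69.3% G and C and 24 CG. Kcnj3 (chr2:55435720-55436019, plus strand) had 57.7% and 10 CG, and Kcnn3 (chr3:89519914-89520213, plus strand) 57.7% and 11 CG. Scn2b (chr9:45117626-45117925, plus strand) had 38.3% and 2 CG.
Kcnh6: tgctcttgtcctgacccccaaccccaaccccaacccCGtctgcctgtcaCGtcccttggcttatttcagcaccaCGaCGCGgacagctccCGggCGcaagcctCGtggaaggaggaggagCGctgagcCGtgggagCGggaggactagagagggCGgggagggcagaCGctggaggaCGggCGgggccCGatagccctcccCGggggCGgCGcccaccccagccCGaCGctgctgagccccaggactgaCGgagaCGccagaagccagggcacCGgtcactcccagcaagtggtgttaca
Kcnj3: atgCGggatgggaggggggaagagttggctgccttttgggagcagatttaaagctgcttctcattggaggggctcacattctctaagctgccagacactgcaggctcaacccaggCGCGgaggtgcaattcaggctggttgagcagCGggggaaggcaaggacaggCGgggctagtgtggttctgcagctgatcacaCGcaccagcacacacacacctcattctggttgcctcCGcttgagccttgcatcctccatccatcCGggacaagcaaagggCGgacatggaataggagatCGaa
Kcnn3: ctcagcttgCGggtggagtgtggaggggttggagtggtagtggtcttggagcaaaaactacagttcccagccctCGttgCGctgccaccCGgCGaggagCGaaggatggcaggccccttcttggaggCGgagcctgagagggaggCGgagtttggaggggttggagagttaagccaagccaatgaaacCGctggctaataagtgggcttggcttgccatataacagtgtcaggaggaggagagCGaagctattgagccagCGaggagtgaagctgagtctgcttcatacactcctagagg
Scn2b: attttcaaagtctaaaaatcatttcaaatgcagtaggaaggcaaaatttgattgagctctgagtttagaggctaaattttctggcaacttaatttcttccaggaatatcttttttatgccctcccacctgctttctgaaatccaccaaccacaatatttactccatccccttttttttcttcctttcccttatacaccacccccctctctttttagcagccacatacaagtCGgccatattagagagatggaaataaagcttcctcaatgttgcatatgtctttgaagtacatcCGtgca
Over all 32851 promoters of the same length in that table, the median was 52.7% G and C and 7 CG, and over the 48 promoters of 31 tested channel genes 61.5% and 11.5. The Scn2b window therefore lay below, and the Kcnh6 window above, both medians. None of 4 short motifs searched on both strands was in these 4 windows: TAAT followed by ATTA after 2 or after 3 bases, the palindromes of paired-class homeodomains, and the paired-domain cores GTCACGC and TCACACC, the last pair of which share TCAC. These letters occur in 0.39%, 0.487%, 2.09% and 3.98% of all promoters, in that order. The absence says only that the letters are not in these windows.

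The channel genes covered a wide span of expression. FPKM is per length of exon, so levels can be set side by side between genes, but only roughly. Whether the counting used strand is not stated, and some of these genes share exon bases with others. The tested genes had a mean of at least 10 FPKM over the 10 libraries outside NoTag in 12 cases, between 1 and 10 FPKM in 29, and under 1 FPKM in 4. Cacna2d1, the alpha2delta subunit that brings calcium channels to the cell surface, was the highest at 124 FPKM (108.7 to 134.4). Next came Kcnk1, a tandem-pore potassium channel, at 65.9 FPKM (60.8 to 69.1). These did not overlap each other in any of the 10 libraries. The sodium channel Scn3a at 30.4 FPKM (23.7 to 36.1) and the calcium-binding Kcnip3, at 29.2 FPKM (25.8 to 33.3), overlapped in range. The inward rectifier Kcnj3 at 21.0 FPKM (15.6 to 24.9) and the mechanically gated Kcnk2 at 20.1 FPKM (15.0 to 23.9) overlapped likewise.

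**Figure D1:**
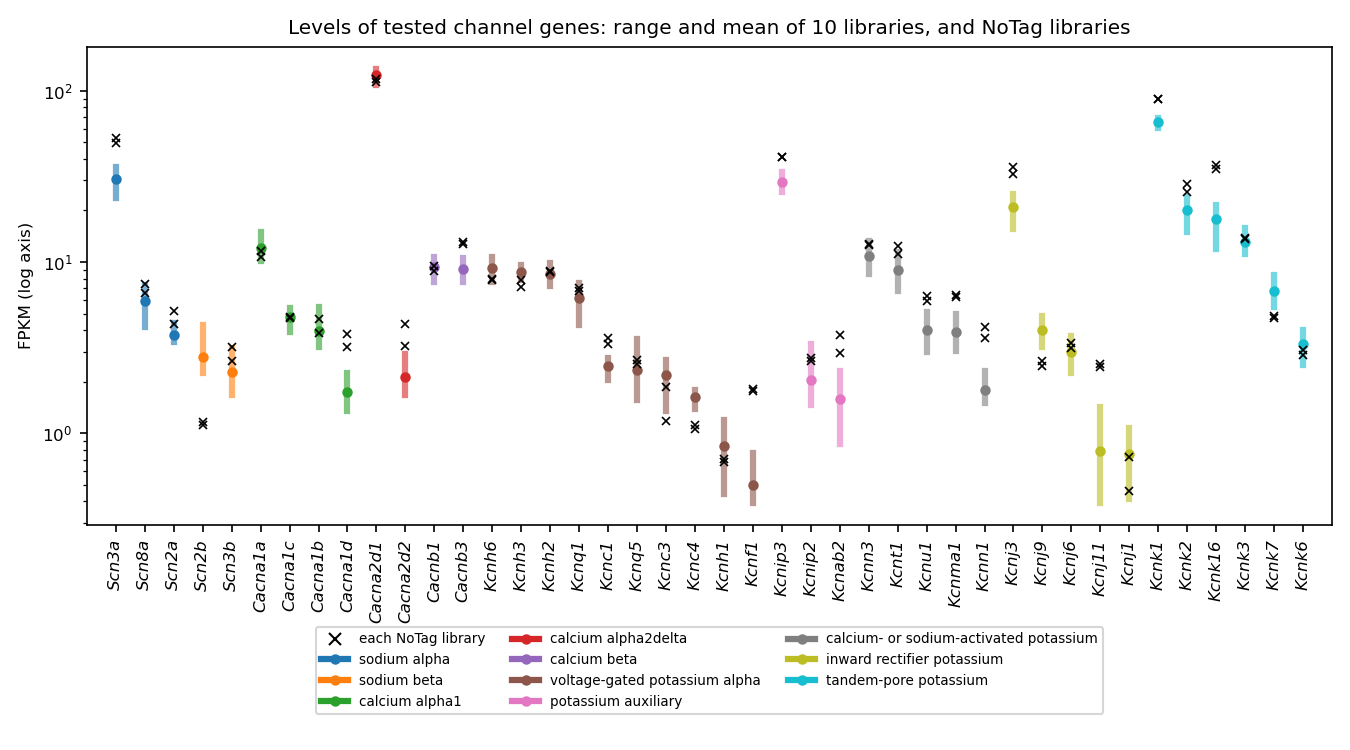
FPKM (log axis) of 42 of the 45 tested channel genes, ordered by class. Dots and bars are the mean and the range of the 10 libraries outside NoTag, crosses the 2 NoTag libraries. Cacna2d1 and Kcnk1 lie above the rest shown, and the crosses of Kcnk16 and Kcnj11 lie above their bars.

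By role, the pore-forming sodium channel subunits were led by Scn3a, with Scn8a (5.92 FPKM) and Scn2a (3.72 FPKM) below it, and 5 of 8 alpha subunits in the table were untested for low values. Among 9 calcium channel alpha1 subunits, 4 were tested: Cacna1a, the P/Q-type pore (12.1 FPKM), Cacna1c and Cacna1d, both L-type (4.80 and 1.73 FPKM), and Cacna1b, the N-type pore (3.97 FPKM). Each of the T-type pores in the table (Cacna1g, Cacna1h and Cacna1i) stayed under 1 FPKM in every library. The voltage-gated potassium pores had 21 genes in the table and 12 tested, among them Kcnh6 (9.25 FPKM) and Kcnh3 (8.69 FPKM). All 5 potassium channels grouped by symbol as calcium- or sodium-activated were tested, with the small-conductance Kcnn3 (10.8 FPKM) the highest. Kcnu1 is in this class by symbol only, and its opening by either ion is not implied. Of the inward rectifiers 5 of 6, and of the tandem-pore channels 6 of 8, were tested. Among libraries outside NoTag the levels were steady: the highest library was 1.14 times the lowest for Kcnk1 and 1.24 times for Cacna2d1. The widest span, 3.62 times, was that of the low Kcnj11.

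The comparison of Q-GL- with Q-GL+ cells sets Pax7 without GL beside Pax7 with GL, both without the glutamine. Expression of Kcnj3, Kcnn3 and Scn3a was higher, and that of Scn2b and Kcnh6 lower, in Q-GL- cells. In all, 4 of 45 channel genes were higher, against 3.06% of all genes tested, and 2 lower, against 1.11%. The median log2 fold change was 0.063 over the channel genes and 0.039 over all genes. After median centring 7 channel genes were higher and 2 lower, with 510 and 222 of all genes, against 385 and 139 as deposited. Quantile normalization gave the same 2 counts of channel genes, with 559 and 337 of all genes.

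Scn2b (chromosome 9, 45117782-45130070, plus strand, GRCm38), a beta subunit of sodium channels, was at 2.27 and 2.26 FPKM in Q-GL- cells, against 4.29 and 3.95 FPKM in Q-GL+ cells. The groups did not overlap, and the log2 fold change, on the log2(FPKM + 1) scale as are all others here, was −0.65 ± 0.099 (SE, n = 2 each; limma adjusted p = 0.00298). It passed in all 13 alternatives that could be fitted. The pore Scn3a (chromosome 2, 65457118-65567627, minus strand) was at 34.4 and 31.5 FPKM in Q-GL- cells, against 27.5 and 23.7 FPKM in Q-GL+ cells (log2 fold change 0.35 ± 0.088, adjusted p = 0.0453). Its groups did not overlap, yet it passed in 6 of 14 alternatives, with an adjusted p between 0.0214 and 0.344 over them. The beta subunit Scn3b was at 2.19 and 2.59 FPKM in Q-GL- cells, against 1.72 and 1.87 FPKM in Q-GL+ cells, and did not pass.

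Among potassium channels, Kcnj3 (chromosome 2, 55435970-55598145, plus strand) encodes a subunit of the G protein-gated inward rectifier, through which receptor signals slow firing. It was at 24.9 and 23.6 FPKM in Q-GL- cells, against 17.3 and 15.6 FPKM in Q-GL+ cells (log2 fold change 0.53 ± 0.085, adjusted p = 0.00371). The other subunits of that channel did not pass: Kcnj6 was at 3.71 and 3.41 FPKM in Q-GL- cells, against 2.84 and 3.60 FPKM in Q-GL+ cells, and Kcnj9 at 3.73 and 3.64 FPKM in Q-GL- cells, against 3.63 and 3.17 FPKM in Q-GL+ cells. Kcnn3 (chromosome 3, 89520164-89675132, plus strand), a small-conductance channel opened by calcium, was at 12.4 and 13.2 FPKM in Q-GL- cells, against 8.49 and 8.66 FPKM in Q-GL+ cells (log2 fold change 0.53 ± 0.089, adjusted p = 0.00588). Kcnh6 (chromosome 11, 106008124-106034549, plus strand), of the ether-a-go-go-related potassium channels, was at 7.68 and 8.32 FPKM in Q-GL- cells, against 10.8 and 9.86 FPKM in Q-GL+ cells (log2 fold change −0.33 ± 0.084, adjusted p = 0.048). For all 3 genes, as for Scn2b and Scn3a, the groups were apart. With 2 libraries each this says little, since the groups were also apart for Kcnc4 (limma adjusted p = 0.8). Kcnj3 lost its call without Q-GL+ replicate 2 (adjusted p up to 0.0575), and Kcnn3 without Q-GL+ replicate 1 or Q-GL- replicate 2 (up to 0.071), while Kcnh6 passed in 6 of 14 alternatives (0.0131 to 0.282).

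**Figure D2:**
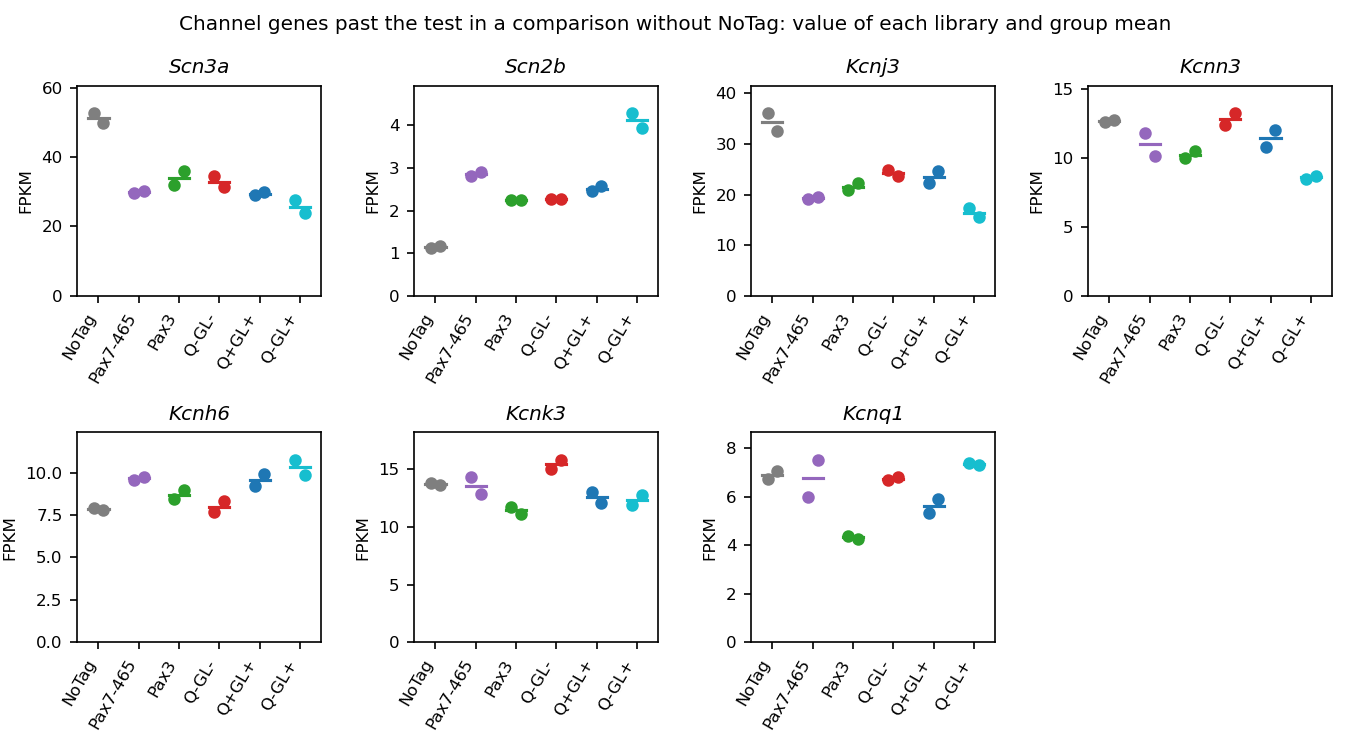
FPKM of 7 of the 8 channel genes past the test in a comparison without NoTag, 1 point per library, with the mean of each group as a line. Scn2b is highest in Q-GL+ cells and lowest in NoTag cells, and Kcnq1 is lowest in Pax3 cells.

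Several further channels had differences of the same size and wider error. Kcnj11, the pore of the ATP-sensitive potassium channel, was at 0.997 and 1.42 FPKM in Q-GL- cells, against 0.667 and 0.392 FPKM in Q-GL+ cells (log2 fold change 0.53 ± 0.14, adjusted p = 0.0597). Kcnab2, a beta subunit of voltage-gated potassium channels, was at 1.97 and 2.27 FPKM in Q-GL- cells, against 1.02 and 1.19 FPKM in Q-GL+ cells (log2 fold change 0.57 ± 0.16, adjusted p = 0.0807). Neither passed the test. Of the alternatives, Kcnj11 passed only after quantile normalization, after median centring and without the trend of limma. Kcnab2 passed only with these 2 groups fitted alone and with the replicate block. Kcnj11 was tested at all only through the NoTag libraries. Kcnip2 and Cacna1b went the other way and did not pass either. Their log2 fold changes were −0.43 ± 0.14 (limma adjusted p = 0.116) and −0.42 ± 0.14 (adjusted p = 0.139). By class, 1 of the 5 genes grouped by symbol as calcium- or sodium-activated channels passed, while their median log2 fold change was 0.471. Kcnn3 and Kcnu1 were at 0.53 and 0.52, but Kcnma1 and Kcnn1 at 0.063 and 0.056. Kcnu1 was placed in this class by symbol only, and the median rests in part on it. None of the 4 calcium alpha1, 2 alpha2delta, 2 calcium beta or 6 tandem-pore genes passed, and their log2 fold changes ran from −0.42 to 0.38.

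Some marker levels differed between these groups too. The 3 melanotrope markers in the table (of 4 fixed, the Pax7 transgene among them) summed to 141 to 142 FPKM in Q-GL- cells, against 121.5 to 125 FPKM in Q-GL+ cells, and the 5 corticotrope markers to 9135 to 9677 FPKM, against 6995 to 7658 FPKM. Of the melanotrope markers, Pcsk2 was at 35.8 and 36.6 FPKM in Q-GL- cells, against 16.2 and 15.4 FPKM in Q-GL+ cells, and Pax7 at 95.2 and 93.9 FPKM in Q-GL- cells, against 104 and 102 FPKM in Q-GL+ cells, a difference that did not pass (adjusted p = 0.32). The corticotrope sum was nearly all Pomc, at 8622 and 9158 FPKM in Q-GL- cells, against 7226 and 6593 FPKM in Q-GL+ cells, which did not pass (adjusted p = 0.142), as Tbx19 did not, at 117 and 116 FPKM in Q-GL- cells, against 129 and 119 FPKM in Q-GL+ cells (adjusted p = 0.636). Whether the corticotrope list separates corticotropes from melanotropes was not tested. Its member Tbx19 encodes Tpit, which the study describes as cooperating with Pax7 at melanotrope enhancers. The sum is therefore no measure of corticotrope fate. The part of these marker differences in the channel results was not tested either. In bulk RNA, fewer cells that express a gene and less of its RNA per cell cannot be told apart. Without replicate 2 of Q-GL+ or replicate 2 of Q-GL- the count of channel genes past the test was 3, and without the NoTag libraries in the fit it was 4, Scn3a and Kcnh6 having lost their calls. Kcnj3 shares 31.1% of its exon bases with the antisense transcript Gm26794, which was at 0 to 0.492 FPKM, against 15.6 to 36.0 FPKM for Kcnj3. The libraries were strand-specific, but whether the counting used strand is not stated.

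**Figure D3:**
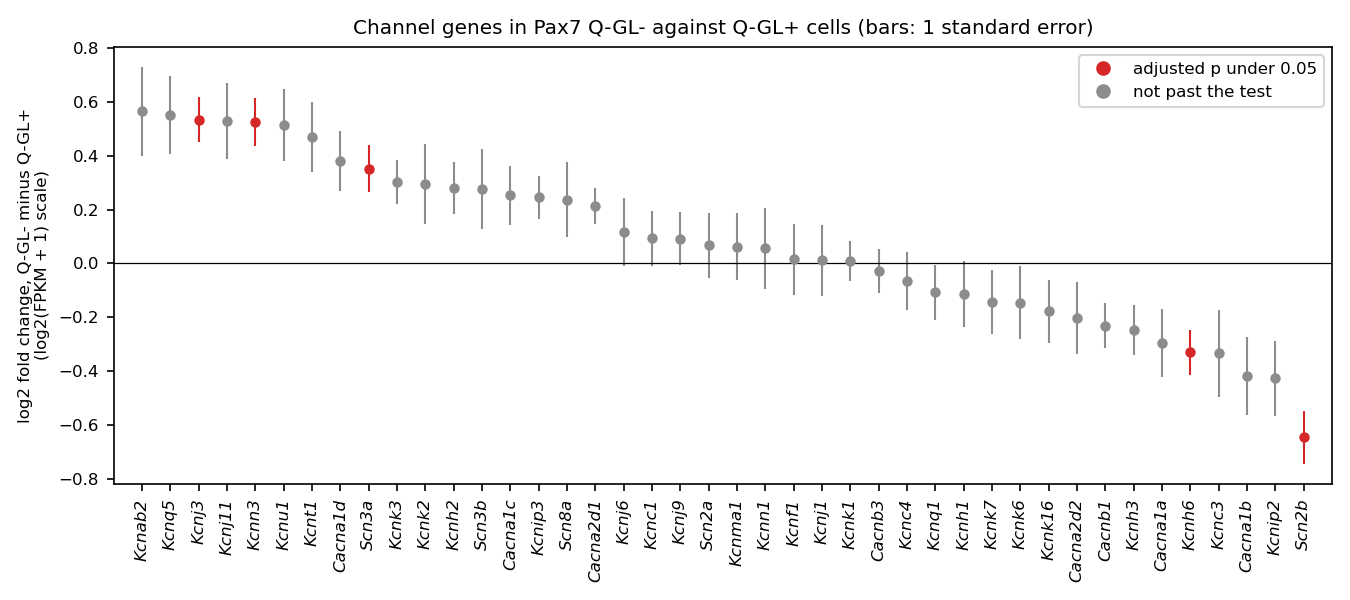
Log2 fold change (Q-GL- minus Q-GL+, log2(FPKM + 1) scale) of 42 of the 45 tested channel genes, with 1 standard error from the limma fit. Red points have an adjusted p under 0.05: Kcnj3, Kcnn3 and Scn3a above 0, Kcnh6 and Scn2b below 0.

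Between Q-GL- and Q+GL+ cells, which differ by both insertions, 1 channel gene of 45 was higher, against 1.80% of all genes, and none was lower, against 0.358%. At an unadjusted p under 0.05, 10 of 45 (22.2%) were higher and 3 (6.67%) lower, against 9.36% and 4.95% of all genes. The median log2 fold change was 0.121 over the channel genes and 0.021 over all genes. The count was 0 on leaving out any 1 of the 4 libraries. Kcnj3, at 24.9 and 23.6 FPKM in Q-GL- cells, against 22.3 and 24.7 FPKM in Q+GL+ cells, overlapped between the groups. Scn2b (log2 fold change −0.11 ± 0.099, limma adjusted p = 0.7) and Kcnn3 (0.15 ± 0.089, adjusted p = 0.487) did not pass. Nor did Scn3a (0.15 ± 0.088, adjusted p = 0.481) or Kcnh6 (−0.23 ± 0.084, adjusted p = 0.222). The L-type pore Cacna1d was at 2.25 and 2.25 FPKM in Q-GL- cells, against 1.41 and 1.42 FPKM in Q+GL+ cells (log2 fold change 0.43 ± 0.11, adjusted p = 0.0822), and did not pass. This comparison shares the Q-GL- libraries with the one before.

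Q+GL+ against Q-GL+ cells sets Pax7 with the glutamine beside Pax7 without it, both with GL. Kcnj3 was at 22.3 and 24.7 FPKM in Q+GL+ cells, against 17.3 and 15.6 FPKM in Q-GL+ cells (log2 fold change 0.49 ± 0.085, adjusted p = 0.021). Scn2b was at 2.45 and 2.59 FPKM in Q+GL+ cells, against 4.29 and 3.95 FPKM in Q-GL+ cells (log2 fold change −0.54 ± 0.099, adjusted p = 0.0272). So 1 of 45 channel genes was higher, against 0.453% of all genes, and 1 lower, against 0.509%. The median log2 fold change was −0.042 over the channel genes and 0.015 over all genes. Both calls were lost on leaving out any 1 of the 4 libraries. With median centring 1 was higher and 2 lower, and with quantile normalization 2 were higher and 3 lower. Kcnn3 (log2 fold change 0.37 ± 0.089, adjusted p = 0.0798) did not pass. The same Q-GL+ libraries served in the comparison with Q-GL- cells, where Kcnj3 and Scn2b also passed.

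Pax3 cells set the related factor in place of Pax7. Compared with Q-GL- cells, 3 channel genes were lower and none higher. Kcnq1 (chromosome 7, 143106362-143427042, plus strand), the pore of the slow delayed rectifier, was at 4.39 and 4.27 FPKM in Pax3 cells, against 6.68 and 6.82 FPKM in Q-GL- cells (log2 fold change −0.54 ± 0.10, adjusted p = 0.0105). Kcnk3 (chromosome 5, 30588170-30625271, plus strand), an acid-sensitive tandem-pore leak channel, was at 11.7 and 11.1 FPKM in Pax3 cells, against 15.0 and 15.8 FPKM in Q-GL- cells (log2 fold change −0.40 ± 0.082, adjusted p = 0.0159). In both genes the groups were apart, as they also were for Scn2b, which did not pass (limma adjusted p = 0.985).

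The counts were 3 of 45 lower, against 3.62% of all genes, and 0 higher, against 0.716%. At an unadjusted p under 0.05, 13 (28.9%) were lower and 4 (8.89%) higher, against 13.4% and 4.79% of all genes. The median log2 fold change was −0.065 over the channel genes and −0.043 over all genes. The count was 1 without Pax3 replicate 1, Q-GL- replicate 1 or Q-GL- replicate 2: Kcnq1 lost its call without each of these (adjusted p up to 0.0873), and Kcnk3 without any 1 of the 4 libraries (up to 0.132). Kcnq1 and Kcnk3 each share a few exon bases with an antisense transcript: 2.96% with Kcnq1ot1, at 0.406 to 1.62 FPKM, and 5.76% with Gm9899, at 0.476 to 1.01 FPKM.

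Against Q+GL+ cells, no channel gene of Pax3 cells passed the test in limma, against 0.0875% of all genes higher and 0.175% lower. Before adjustment, p was under 0.05 for 5 channel genes (11.1%) that were higher and 3 (6.67%) that were lower, against 3.71% and 6.5% of all genes. The lowest adjusted p was 0.172, and the log2 fold changes ran from −0.31 to 0.49. Kcnq1 was at 4.39 and 4.27 FPKM in Pax3 cells, against 5.35 and 5.90 FPKM in Q+GL+ cells (log2 fold change −0.31 ± 0.10, adjusted p = 0.304). Kcnk3 was at 11.7 and 11.1 FPKM in Pax3 cells, against 13.0 and 12.1 FPKM in Q+GL+ cells (−0.12 ± 0.082, adjusted p = 0.672). Its highest group mean was that of Q-GL- cells, 15.4 FPKM.

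The deletion mutant Pax7-465 gave no channel gene past the test in limma against Q-GL- or Q+GL+ cells. Against Q-GL- cells, 0.0954% of all genes were higher and 0.35% lower past the adjusted test. The unadjusted p was under 0.05 for 4 of 45 channel genes (8.89%) that were higher and 5 (11.1%) that were lower, against 2.61% and 8.16% of all genes. Kcnj3 was at 19.1 and 19.4 FPKM in Pax7-465 cells, against 24.9 and 23.6 FPKM in Q-GL- cells (log2 fold change −0.32 ± 0.085, adjusted p = 0.18). The groups were apart, yet the difference did not pass. Against Q+GL+ cells, 0.867% of all genes were higher and 0.461% lower past the adjusted test. The unadjusted p was under 0.05 for 7 channel genes (15.6%) that were higher and 4 (8.89%) that were lower, against 5.96% and 7.18% of all genes. The lowest adjusted p there, 0.0612, was that of Cacnb3, a cytoplasmic beta subunit of calcium channels, at 7.62 and 8.21 FPKM in Pax7-465 cells, against 10.2 and 10.5 FPKM in Q+GL+ cells (log2 fold change −0.35 ± 0.081). The median log2 fold change of the channel genes was −0.037 against Q-GL- cells and 0.083 against Q+GL+ cells, and of all genes −0.035 and −0.009 in the same order.

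The NoTag cells differed from Q+GL+ cells far more widely, in channel genes as in all genes. Of 45 channel genes, 19 were higher, against 36.9% of all genes, and 7 lower, against 9.02%. The 19 include Kcnj11 and Kcnf1, which passed the filter on low values only through the NoTag libraries. The filter itself favoured the higher side for these genes. The whole table was shifted in this comparison: the median log2 fold change was 0.179 over all genes and 0.191 over the channel genes. With each library centred on its median, 13 channel genes were higher and 11 lower, and 2714 and 2669 of all genes, and quantile normalization gave the same 2 counts for the channel genes. The direction held and passed under all 3 scalings for 13 higher genes, Kcnj11 and Kcnf1 among them, and for 7 lower genes. Those named next are among these. The tag, the isoform and anything else that sets the NoTag cells apart cannot be told apart in this comparison. Pax7 itself was at 157 and 159 FPKM in NoTag cells, against 99.9 and 102 FPKM in Q+GL+ cells.

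Among tandem-pore channels, Kcnk16, known from pancreatic beta cells, was at 36.7 and 34.8 FPKM in NoTag cells, against 14.7 and 15.6 FPKM in Q+GL+ cells (log2 fold change 1.19 ± 0.12, adjusted p = 7.57e-06). Kcnk1 was at 89.4 and 89.6 FPKM in NoTag cells, against 60.8 and 63.3 FPKM in Q+GL+ cells (0.52 ± 0.074, and 0.34 after centring). Both NoTag libraries were above all 10 others in each gene. The ATP-sensitive pore Kcnj11 was at 2.45 and 2.52 FPKM in NoTag cells, against 0.653 and 0.700 FPKM in Q+GL+ cells (log2 fold change 1.06 ± 0.14), and it passed the filter on low values only through the NoTag libraries, as did Kcnf1. Kcnf1, a pore subunit that conducts only in partnership with others, was at 1.82 and 1.75 FPKM in NoTag cells, against 0.440 and 0.629 FPKM in Q+GL+ cells. A fold change of these 2 genes could not have been tested without the NoTag libraries.

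The sodium channel pore Scn3a was higher as well, at 52.6 and 49.7 FPKM in NoTag cells, against 29.1 and 29.9 FPKM in Q+GL+ cells (log2 fold change 0.78 ± 0.088, adjusted p = 2.69e-05). Scn2b went the other way, at 1.12 and 1.17 FPKM in NoTag cells, against 2.45 and 2.59 FPKM in Q+GL+ cells (−0.72 ± 0.099). Scn3a was thus at its highest, and Scn2b at its lowest, in the NoTag libraries of all 12.

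Of the calcium channel genes, Cacna1d, an L-type pore that opens at low voltage, was at 3.19 and 3.82 FPKM in NoTag cells, against 1.41 and 1.42 FPKM in Q+GL+ cells (log2 fold change 0.89 ± 0.11). Cacna2d2, an alpha2delta subunit, was at 4.32 and 3.22 FPKM in NoTag cells, against 1.97 and 1.68 FPKM in Q+GL+ cells (0.75 ± 0.13). The other alpha1 subunits did not pass. Among calcium-activated potassium channels, Kcnma1, of large conductance, was at 6.42 and 6.21 FPKM in NoTag cells, against 3.89 and 3.54 FPKM in Q+GL+ cells (0.64 ± 0.12), and Kcnn1, of small conductance, at 4.16 and 3.58 FPKM in NoTag cells, against 1.53 and 1.87 FPKM in Q+GL+ cells (0.85 ± 0.15). The auxiliary Kcnip3 (41.1 and 40.9 FPKM in NoTag cells, against 25.8 and 27.5 FPKM in Q+GL+ cells) and Kcnab2 (2.95 and 3.76 FPKM in NoTag cells, against 0.863 and 1.52 FPKM in Q+GL+ cells) also passed, as did Kcnj3, at 36.0 and 32.5 FPKM in NoTag cells, against 22.3 and 24.7 FPKM in Q+GL+ cells.

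The voltage-gated potassium pores were the class with more genes lower than higher, 5 against 2 of 12, and their median log2 fold change was −0.159. Kcnf1, which passed the filter only through the NoTag libraries, was 1 of the 2 higher. Of those lower, Kcnc4, Kcnh3 and Kcnh6 had log2 fold changes of −0.36, −0.26 and −0.25, and lost their calls without at least 2 of the 4 libraries (adjusted p up to 0.208): Kcnc4 without NoTag replicate 1 or Q+GL+ replicate 2, Kcnh3 and Kcnh6 without any 1. Outside this class the inward rectifier Kcnj9 was lower, at 2.45 and 2.63 FPKM in NoTag cells, against 4.78 and 4.81 FPKM in Q+GL+ cells (−0.71 ± 0.099). Kcnj3 and Kcnj9, subunits of the same channel family, thus moved in opposite directions under all 3 scalings. A further 6 genes (Kcnu1, Kcnk2, Kcnc1, Scn3b, Scn2a and Cacnb3) were higher as deposited, with log2 fold changes of 0.29 to 0.51, and did not pass after centring. The count of channel genes past the test was 20 or 21 on leaving out any 1 library.

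**Figure D4:**
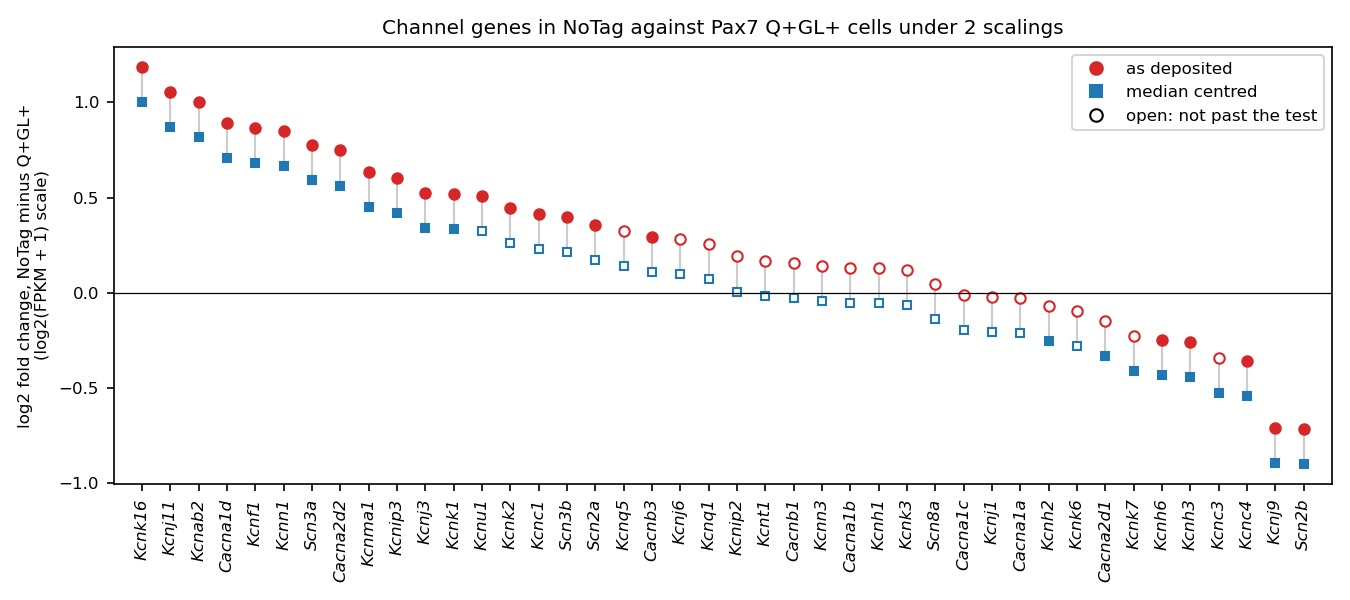
Log2 fold change (NoTag minus Q+GL+, log2(FPKM + 1) scale) of 42 of the 45 tested channel genes as deposited (circles) and after each library was centred on its median (squares), filled where the adjusted p was under 0.05. Kcnk16, Kcnj11 and Kcnab2 stand at the high end and Scn2b and Kcnj9 at the low end under both scalings. Kcnj11 and Kcnf1 passed the filter on low values only through the NoTag libraries.

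A list of 35 further genes that shape excitability (pacemaker and leak channels, regulators of calcium channels, intracellular fibroblast growth factors, partners of potassium channels) was set beside the channels, with 29 in the table and 19 tested. The list was chosen with earlier results of these data known. Of the 19, 3 were higher and 1 lower in Q-GL- against Q-GL+ cells (21.1%, against 4.17% of all genes). In Q-GL- against Q+GL+ cells 2 were higher and 1 lower (15.8%, against 2.15%). In Q+GL+ against Q-GL+ cells 1 was higher and 0 lower (5.26%, against 0.962%). In Pax3 cells 3 were lower and 0 higher against Q-GL- cells (15.8%, against 4.33% of all genes). None passed against Q+GL+ cells, where 0.262% of all genes passed. Without adjustment at the same threshold, 2 were higher (10.5%) and 5 lower (26.3%) there, against 3.71% and 6.5% of all genes. In Pax7-465 cells 1 was lower and 0 higher in each comparison (5.26%). The share of all genes was 0.445% against Q-GL- and 1.33% against Q+GL+ cells. In NoTag cells 7 were higher and 1 lower (42.1%), no larger a share than the 46% of all genes.

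Abcc8, the sulfonylurea receptor that forms the ATP-sensitive channel with Kcnj11, had the smallest adjusted p of the list in the comparison of Q-GL- with Q-GL+ cells. It was at 11.2 and 10.1 FPKM in Q-GL- cells, against 4.56 and 4.89 FPKM in Q-GL+ cells (log2 fold change 1.03 ± 0.093, adjusted p = 6.92e-05). Its level was 5.74 and 5.80 FPKM in Q+GL+ cells (0.78 ± 0.093 for Q-GL- over Q+GL+). It was at 5.24 and 5.37 FPKM in Pax3 cells and at 5.41 and 6.34 FPKM in Pax7-465 cells, with log2 fold changes of −0.89 ± 0.093 (adjusted p = 0.000253) and −0.77 ± 0.093 (adjusted p = 0.00317) against Q-GL- cells. In NoTag cells it was at 13.4 and 13.9 FPKM (1.11 ± 0.093 over Q+GL+). The Q-GL- and NoTag libraries were thus above all 8 others.

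Gem, a small GTPase that inhibits calcium channels, was at 6.72 and 6.53 FPKM in Q-GL- cells, against 3.62 and 3.92 FPKM in Q-GL+ cells (log2 fold change 0.68 ± 0.096, adjusted p = 0.0018), and at 3.88 and 3.65 FPKM in Pax3 cells (−0.68 ± 0.096 against Q-GL- cells, adjusted p = 0.0016). At 5.88 and 5.24 FPKM in Q+GL+ cells, it was higher there than in Q-GL+ cells (0.46 ± 0.096, adjusted p = 0.048), and Q-GL- and Q+GL+ cells did not differ past the test (0.22 ± 0.096, adjusted p = 0.318). Dpp6, a partner of rapidly inactivating potassium channels, averaged 2.63 ± 0.37 FPKM in Q-GL- cells, against 1.46 ± 0.047 FPKM in Q-GL+ cells (SD, n = 2 each), with a log2 fold change of 0.56 ± 0.12 (limma adjusted p = 0.0256). Fgf12, an intracellular factor that binds sodium channels, set the NoTag cells apart, at 31.3 and 32.0 FPKM, against 3.97 and 4.30 FPKM in Q+GL+ cells (2.67 ± 0.088, adjusted p = 3.73e-10), and no other library passed 5.60 FPKM. The pacemaker channel Hcn4, at 6.91 and 7.65 FPKM in NoTag cells, against 3.48 and 3.56 FPKM in Q+GL+ cells, and the sodium leak channel Nalcn, at 3.40 and 2.90 FPKM in NoTag cells, against 1.68 and 1.46 FPKM in Q+GL+ cells, were higher too (0.87 ± 0.10 and 0.69 ± 0.12).

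The prohormone convertase Pcsk2, known as a Pax7 target of melanotropes, was at 35.8 and 36.6 FPKM in Q-GL- cells, against 16.2 and 15.4 FPKM in Q-GL+ cells (log2 fold change 1.14 ± 0.074). Its level was 65.6 and 64.9 FPKM in NoTag cells, 20.8 and 22.0 FPKM in Pax7-465 cells, 17.2 and 18.9 FPKM in Pax3 cells and 11.7 and 12.5 FPKM in Q+GL+ cells. In NoTag and Q-GL- cells, the groups with the highest Pcsk2, Abcc8 was also at its highest. In all, 29 of 45 channel genes passed the test in at least 1 of 8 comparisons, 21 of them in the NoTag comparison alone, and 16 passed in none. Of all 12578 genes, 48.3% passed in at least 1 comparison and 40.8% in the NoTag comparison alone.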

How the data were processed

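RNA was measured in 12 libraries of 6 groups. The authors deposited a value per gene and library, which is read here as FPKM. That unit was inferred from the study's methods and from the values. They had trimmed paired-end reads with Trimmomatic, aligned them by TopHat2 to mm10 (GRCm38) with Ensembl gene models only, no new junctions being searched, and quantified genes in HOMER. The versions of these 3 tools are not given for the RNA libraries in the sources used here, and the table does not name its unit. The authors used edgeR, which takes counts; the table holds none, so no count model was run and no counting interval can be given.

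Members were taken by symbol, and classes and lists were chosen with earlier results of these data known. Values were taken as log2(FPKM + 1), with a pseudocount of 1, which understates changes of low genes. All 12578 genes that reached 1 FPKM in 2 or more libraries were fitted together in limma (version 3.58.1, trend and robust, R 4.3.3), with 1 coefficient per group, and p-values were adjusted by Benjamini-Hochberg within each of 8 comparisons, two-sided, the threshold being 0.05. Channel genes named in full passed in at least 1 comparison or were among the 8 highest; of the 35 further genes up to 6 were named, by smallest adjusted p, and other genes are named with their values only. Some channel genes are counted but not reported here by name or plotted. Alternatives changed the scaling, the fit, the filter, the pseudocount, the libraries and a replicate block. Another 4 per-sample columns were left out. Coordinates are those of the table, with starts counted from 1. Promoters came from RefSeq (GRCm38.p6) and exon overlaps from GENCODE vM21, where all 45 tested genes matched by ID and symbol; 18 share exon bases with another gene. Python 3.11.15 drew the plots.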

Additional observations from a re-analysis of the deposited data

How the results depend on the processing

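No fold change of a channel gene past the test changed sign under any alternative run; Abcc8, Gem, Dpp6 and Fgf12 were not run under the alternatives. Several medians did: for example, under quantile normalization that of the channel genes in Pax7-465 against Q-GL- cells was 0.03, against −0.04 as deposited, and after median centring that of all genes was 0.01, against −0.04, in Pax3 against Q-GL- cells. When the log2 fold change also had to reach 1, 3 channel genes passed in NoTag against Q+GL+ cells, Kcnj11 among them. Kcnj11 had passed the filter on low values only through the NoTag libraries, which favoured the higher side for it. None passed in Q-GL- against Q-GL+, Q-GL- against Q+GL+, Q+GL+ against Q-GL+ or Pax3 against Q-GL- cells (0 in each). Quantile normalization gave 3 channel genes in Q-GL- against Q+GL+, 5 in Q+GL+ against Q-GL+ and 2 in Pax7-465 against Q+GL+ cells, and median centring 1 in the last. Without the trend of limma the counts were 2 in Q-GL- against Q+GL+, 5 in Pax3 against Q-GL- and 1 in Pax7-465 against Q+GL+ cells. Without a filter beyond a value above 0, 5 passed in Pax3 against Q-GL- cells. With a filter of 5 FPKM, which tests fewer genes, 1 passed in Q+GL+ against Q-GL+ cells and 14 in NoTag against Q+GL+ cells. Otherwise the cause was not tested. On leaving out 1 library the counts ran from 3 to 4 in Q-GL- against Q-GL+, 0 to 0 in Q-GL- against Q+GL+ and in Q+GL+ against Q-GL+, 1 to 4 in Pax3 against Q-GL-, and 20 to 21 in NoTag against Q+GL+ cells; the lone library left is assumed to vary like those of other groups.

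The replicate block left the total of channel genes past the test as it was in each comparison (6, 1, 2, 3, 0, 0, 0 and 26 in the order of the report). In Q-GL- against Q-GL+ cells the genes differed, however: 5 were higher and 1 lower, Kcnab2 and Kcnu1 having gained and Scn3a and Kcnh6 lost their calls. Replicates of the same number shared only that number: over 15 pairs of groups their differences correlated at −0.158 to 0.173, over 0.1 in 2 pairs. With 2 libraries a group and unknown depth, differences of low genes such as Kcnj11 and Kcnab2 are the least certain.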
